A study of Homo sapiens with 24 samples.

Results

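Transcripts of 10 genes of polyamine and methionine metabolism were followed in HepG2 cells, out of 58676 genes counted in the series. They were taken by name (AMD1, ODC1, OAZ1, OAZ2, AZIN1, SAT1, SRM, SMS, MAT2A and AHCY), each was matched to a single Ensembl identifier, and all 10 passed the filter on low counts that left 13136 genes to test. HepG2 is an established human liver cancer cell line. Cells received a non-targeting control siRNA (siControl) or an siRNA that targets 1 of the IGF2BP1, IGF2BP2 and IGF2BP3 mRNAs, whose products are RNA-binding proteins of 1 family, and were then collected after 0, 3 or 6 h of actinomycin D, a drug that blocks transcription. The 4 conditions and 3 time points make 12 groups of 2 libraries, 24 in all. All groups share the cell line and an siRNA transfection, and siControl at the same time point is the control for each knockdown. The paper describes its half-lifetime data as 2 independent replicates, but the labels do not say that the 2 libraries of a group came from separate cultures. The p-values thus measure the spread between these libraries, which may be technical. These are bulk samples, in which fewer cells and less RNA per cell cannot be told apart.

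Polyamines (putrescine, spermidine and spermine) are small positively charged molecules that bind nucleic acids and are needed for growth. ODC1 makes putrescine, AMD1 makes the decarboxylated S-adenosylmethionine that donates the further carbon chain, and SRM and SMS join the parts into spermidine and spermine. SAT1 acetylates polyamines for breakdown or export, the antizymes OAZ1 and OAZ2 bind ODC1 and send it to degradation, and AZIN1 binds antizymes and so protects ODC1. MAT2A makes S-adenosylmethionine from methionine in tissues other than adult liver and in liver cancer cells, and AHCY removes the S-adenosylhomocysteine that methylation leaves. Several of these mRNAs are known to carry elements through which polyamines or S-adenosylmethionine act on their translation or stability.

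Sequences of such elements are shown because they belong to members whose loss is compared below. They were read on the transcript strand of the GRCh38 (hg38) genome and the GENCODE annotation. The 3' untranslated region of MAT2A held 6 copies of TACAGANAA, the word of the hairpins known to be bound and methylated by METTL16, and in these lines the capitals mark that word. They lie at chr2:85543802-85543830, chr2:85544589-85544617, chr2:85544774-85544802, chr2:85544889-85544917, chr2:85545004-85545032 and chr2:85545112-85545140, all on the plus strand.
MAT2A site 1: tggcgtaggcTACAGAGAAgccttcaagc
MAT2A site 2: tgtgatgtcaTACAGAGAAgtcacagggc
MAT2A site 3: ctggtgtagcTACAGAGAAaccagcttcc
MAT2A site 4: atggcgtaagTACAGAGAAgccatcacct
MAT2A site 5: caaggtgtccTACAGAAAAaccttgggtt
MAT2A site 6: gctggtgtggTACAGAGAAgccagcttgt

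The word was present in 7.17% of the 11359 canonical 3' untranslated regions of tested genes with one, and MAT2A was the single gene with 6 copies. Among the 1702 regions of 1208 to 1886 bases, close to the length of that of MAT2A, 6.23% held it. Because the word was chosen as that of the known hairpins, its number of copies in MAT2A is not an independent finding. A match describes the letters and is not evidence that a protein is bound there.

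AMD1 carries a short upstream reading frame in its 5' untranslated region, known from earlier work to stall ribosomes when polyamines are abundant. It has 6 codons before its stop codon, lies at chr6:110874792-110874820 on the plus strand, and is in capitals below. A reading frame of at most 8 codons before a stop occurred in 20.8% of 11370 canonical 5' untranslated regions.
AMD1: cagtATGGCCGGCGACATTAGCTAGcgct

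The antizyme mRNAs are read through a polyamine-stimulated shift of the reading frame at an in-frame stop codon, in capitals below. The sites lie at chr19:2271428-2271457 on the plus strand for OAZ1 and at chr15:64691501-64691530 on the minus strand for OAZ2.
OAZ1: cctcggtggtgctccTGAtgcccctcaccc
OAZ2: cctctgtggtgctccTGAtgcccctcaccc

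Libraries held 31843248 to 74252042 reads in genes and 50889 to 119088 reads from ERCC synthetic RNA. The targeted transcripts went with the labels: at 0 h, 21.1% of IGF2BP1 was left in siIGF2BP1, 26.2% of IGF2BP2 in siIGF2BP2 and 35.5% of IGF2BP3 in siIGF2BP3. All 6 liver-type markers were present in each library (ALB at 10735 to 17356 CPM, read counts scaled by the total of gene reads), whereas PTPRC, PECAM1 and COL1A1 reached at most 0.0181, 1.37 and 0.343 CPM. The siControl libraries at 0 h differed in their ERCC reads, at 0.131% of gene reads in replicate 1 and 0.150% in replicate 2, which touches each ERCC-scaled value given against siControl below. Those of siIGF2BP2 at 6 h also differed, at 0.187% in replicate 1 and 0.162% in replicate 2, which touches the ERCC-scaled values of that group.

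Levels before actinomycin D were compared first. CPM values at 0 h are scaled by TMM, which equalizes the bulk of genes between libraries, and levels of different genes are compared only per kilobase of the canonical transcript. In siControl, SAT1 was highest with a mean of 294 CPM per kb, followed by ODC1 at 195, OAZ1 at 178, AHCY at 170.0 and SRM at 134 CPM per kb. SMS stood at 91.7, MAT2A at 80.4, AMD1 at 55.3, AZIN1 at 24.5 and OAZ2 at 9.48 CPM per kb. Each neighbouring pair in this order was apart in both siControl libraries, the closest being OAZ1 (174 and 182) and AHCY (169 and 171). The antizyme OAZ1 thus stood above its paralog OAZ2 in every library.

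**Figure D1:**
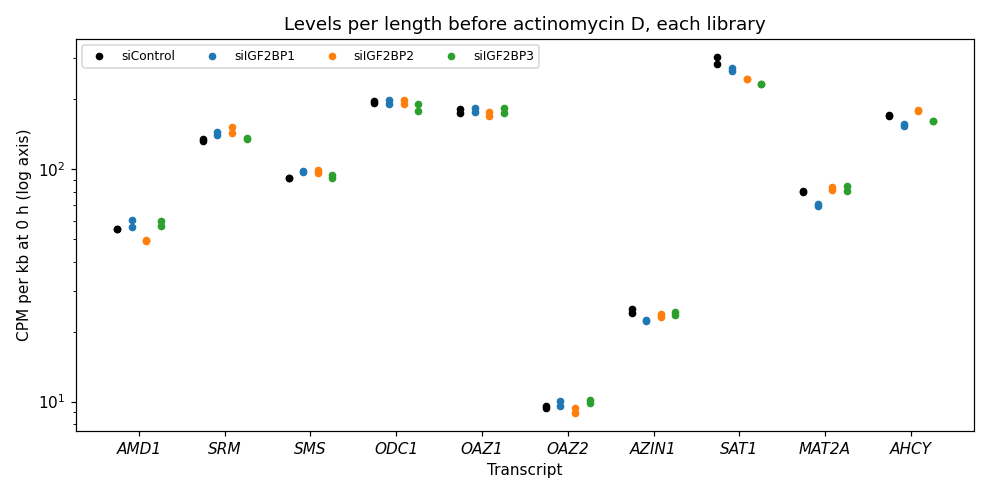
Level of each transcript at 0 h in CPM per kb of canonical transcript (vertical log axis) in the 8 libraries at 0 h, with 1 point per library and 1 colour per condition. SAT1 lies lower in all 6 knockdown libraries than in both siControl libraries, and OAZ2 is the lowest transcript throughout.

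SAT1, the enzyme of polyamine acetylation, was lower in all 3 knockdowns at 0 h. Its level was 319.5 and 298 CPM in siControl, 285 and 277 in siIGF2BP1, 256 and 257 in siIGF2BP2, and 245 and 243 in siIGF2BP3. Both libraries of each knockdown were below both siControl libraries. In edgeR's quasi-likelihood test with Benjamini-Hochberg adjustment over all 13136 genes, the log2 change of SAT1 was -0.14 in siIGF2BP1 (SE 0.035, adjusted p 0.00449), -0.27 in siIGF2BP2 (SE 0.035, adjusted p 3.86e-07) and -0.34 in siIGF2BP3 (SE 0.035, adjusted p 4.81e-09). The 3 comparisons share the siControl libraries. Without replicate 1 of siControl at 0 h, the higher of that pair, the change in siIGF2BP1 was -0.09 with an adjusted p of 0.223, and without replicate 2 of siIGF2BP1 it was -0.12 with an adjusted p of 0.0756 in the edgeR test. With ERCC in place of TMM scaling the change was -0.17 in siIGF2BP1 (adjusted p 0.292) and -0.19 in siIGF2BP2 (adjusted p 0.168 in edgeR), neither of them called, and SAT1 stayed called in siIGF2BP3 alone.

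With siIGF2BP1, 4 of the 10 transcripts fell and none rose, against 15.9% of all tested genes called, 6.5% as lower and 9.43% as higher. MAT2A stood at 228 and 225 CPM in siControl and at 199 and 195 CPM in siIGF2BP1, a fall of 12.9%, and the groups did not overlap. In edgeR, MAT2A had a log2 change of -0.20 (SE 0.039, adjusted p 0.000213). AHCY, the next enzyme of the methionine cycle after methyl transfer, was at 363 and 368 CPM in siControl and 328 and 336 CPM in siIGF2BP1. Its log2 change was -0.14 (SE 0.029, adjusted p 0.00054 in edgeR). AZIN1 was at 105 and 101 CPM in siControl and 93.5 and 94.0 CPM in siIGF2BP1, a change of -0.13 (SE 0.045, adjusted p 0.0344 in edgeR). This smallest of the called changes was lost without replicate 1 of siControl, and without either siIGF2BP1 library, with adjusted p of 0.118 to 0.286 in edgeR. With ERCC scaling none of the 4 falls was called, with -0.23 for MAT2A (adjusted p 0.0898), -0.17 for AHCY (adjusted p 0.297) and -0.17 for AZIN1 (adjusted p 0.352 in edgeR).

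With siIGF2BP2, 2 of the 10 transcripts fell and 1 rose, against 12.1% of all tested genes called, 5.47% as lower and 6.65% as higher. AMD1 stood at 189.7 and 189 CPM in siControl and 168 and 170.2 CPM in siIGF2BP2, and changed by -0.16 (SE 0.047, adjusted p 0.0184 in edgeR). Without any 1 of these 4 libraries the value was -0.15 to -0.17 and the edgeR adjusted p 0.0816 to 0.143. SRM, which makes spermidine, went the other way, from 167 and 170.0 CPM to 192 and 180.3 CPM. Its log2 change was 0.14 (SE 0.036, adjusted p 0.0042 in edgeR), and 0.10 with an adjusted p of 0.211 without replicate 1 of siIGF2BP2. It was also not called without replicate 1 of siControl at 0 h (0.13, adjusted p 0.0722 in edgeR). With ERCC scaling AMD1 gave -0.08 (adjusted p 0.626) and SRM 0.22 (adjusted p 0.0878 in edgeR), neither of them called.

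With siIGF2BP3, SAT1 was the single member called, against 9.39% of all tested genes, 4.47% as lower and 4.93% as higher. DESeq2 called AHCY as well (log2 change -0.08, adjusted p 0.017). ODC1, OAZ1, OAZ2 and SMS were called in no knockdown by the edgeR test. ODC1, the first enzyme of polyamine synthesis, ranged from 442 to 493 CPM over the 8 libraries at 0 h. OAZ1 ranged from 194 to 211 CPM, OAZ2 from 17.3 to 19.7 CPM and SMS from 156 to 168 CPM. DESeq2 called SMS (log2 change 0.10, adjusted p 0.0166) and SRM (0.10, adjusted p 0.0412) as higher in siIGF2BP1.

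**Figure D2:**
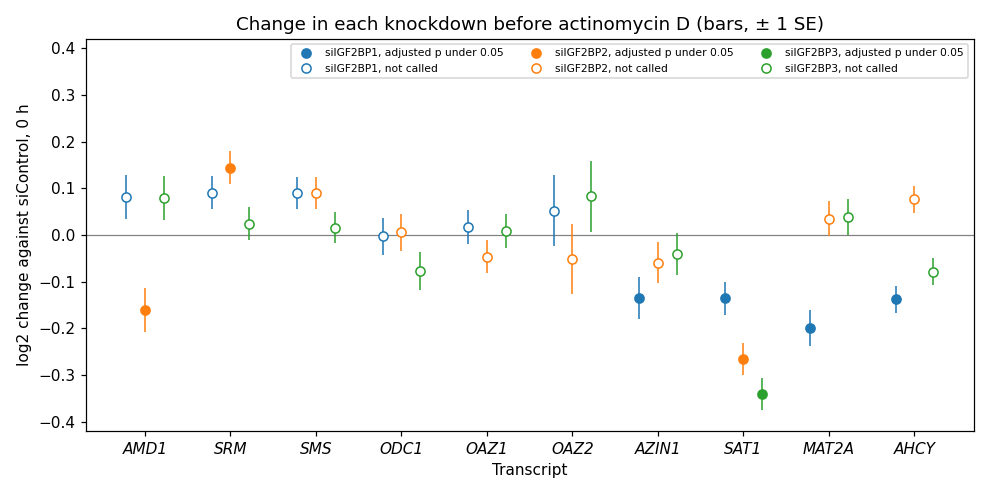
Log2 change of each transcript at 0 h in each knockdown against siControl (vertical axis), with bars of 1 SE from edgeR and filled points where the adjusted p was under 0.05. SAT1 is filled and below 0 in all 3 knockdowns, from -0.14 to -0.34, whereas MAT2A and AHCY are filled for siIGF2BP1 alone.

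The knockdowns were also set against each other at 0 h. Between siIGF2BP2 and siIGF2BP1, 4 of 10 transcripts differed, against 18.7% of all tested genes. Between siIGF2BP3 and siIGF2BP1, 2 differed, against 14.3%, and between siIGF2BP3 and siIGF2BP2, 3 differed, against 9.19%. MAT2A was higher in both siIGF2BP2 (228 and 236 CPM) and siIGF2BP3 (226.5 and 239 CPM) than in siIGF2BP1, by 0.23 (SE 0.039, adjusted p 1.6e-05 in edgeR) and 0.24 (SE 0.039, adjusted p 2.09e-05 in edgeR) on the log2 scale. AMD1 was at 193 and 207 CPM in siIGF2BP1 and at 195 and 205 CPM in siIGF2BP3, so that siIGF2BP2 lay 0.24 below each on the log2 scale. The MAT2A differences were also called with ERCC scaling, and those of AMD1 were not.

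After actinomycin D the members separated into lost and retained transcripts. Values during the time course were scaled by ERCC reads and are given as a percent of the mean of the same condition at 0 h. A slope is the log2 change over 6 h from a straight line through the 6 libraries of a condition. In siControl, 6 of the 10 members fell, against 80.3% of all tested genes, and the median slope was -0.31 for the members and -0.88 for all tested genes. The same falls were called for 5 members in siIGF2BP1 (69.1% of all genes), 5 in siIGF2BP2 (71.3%) and 3 in siIGF2BP3 (67.2%).

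AMD1 was lost fastest. In siControl, 32.0% and 32.4% were left at 3 h and 20.6% and 21.3% at 6 h, well below the 93.3% to 107% of the libraries at 0 h. In siIGF2BP1, 35.4% and 31.6% were left at 3 h and 22.95% and 23.1% at 6 h. In siIGF2BP2 the values were 37.8% and 37.9% at 3 h and 26.1% and 34.1% at 6 h, and in siIGF2BP3 they were 35.7% and 39.5% at 3 h and 29.9% and 26.9% at 6 h. All 6 knockdown libraries at 6 h thus lay above both siControl libraries under this scaling. How many of all tested genes showed this order was not counted. Their median slope difference from siControl was 0.19 in siIGF2BP1, 0.17 in siIGF2BP2 and 0.22 in siIGF2BP3. In TMM-scaled CPM at 6 h, AMD1 in siIGF2BP1 (72.7 and 74.3) lay between the siControl libraries (68.4 and 76.7). The siControl slope was -2.26 (SE 0.26, adjusted p 5.85e-08 in edgeR), and 16.0% of tested genes fell more steeply.

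MAT2A followed. In siControl 43.3% and 42.3% were left at 3 h and 26.4% and 26.1% at 6 h. At 6 h, 34.0% and 33.0% were left in siIGF2BP1, 28.5% and 33.2% in siIGF2BP2, and 32.2% and 31.1% in siIGF2BP3. Here too the knockdown libraries all lay above those of siControl under ERCC scaling. The same order at 6 h held for AZIN1, SAT1, OAZ2, ODC1, OAZ1 and SMS, but not for SRM and AHCY. It was thus not particular to AMD1 and MAT2A. In TMM-scaled CPM at 6 h, MAT2A in siIGF2BP1 (105.9 and 104.8) lay between the siControl libraries (104.6 and 112.9). These are levels and not shares of the 0 h level, which was lower in siIGF2BP1 (199 and 195 CPM against 228 and 225). With TMM scaling the slope difference of MAT2A in siIGF2BP1 was 0.15 (SE 0.20), still above 0. The MAT2A slope in siControl was -1.93 (SE 0.18, adjusted p 2.96e-09 in edgeR), and 21.1% of tested genes fell more steeply. AMD1 was below MAT2A in both libraries at 6 h in 3 of the 4 conditions.

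AZIN1 and SAT1 were lost more slowly. AZIN1 had 56.8% and 59.3% left at 6 h in siControl, with a slope of -0.78 (SE 0.087, adjusted p 3.23e-08 in edgeR). In the knockdowns its slope was -0.59, -0.60 and -0.54, called each time. SAT1 had 71.0% and 65.1% left in siControl and a slope of -0.55 (SE 0.12, adjusted p 0.000263 in edgeR). Its slope was called in siIGF2BP1 (-0.27, adjusted p 0.0494) and siIGF2BP2 (-0.32, adjusted p 0.0221) but not in siIGF2BP3 (-0.26, adjusted p 0.0582 in edgeR). In siIGF2BP1 the SAT1 call was lost without either library at 0 h, without either at 6 h and without replicate 1 at 3 h. In siIGF2BP2 it was lost without either library at 0 h and without replicate 1 at 6 h (adjusted p 0.0905 to 0.142 in edgeR). In siIGF2BP3 the fall was called by DESeq2 (adjusted p 0.0451) and, in edgeR, from the 0 h to 6 h change alone (adjusted p 0.00252), with no count filter (adjusted p 0.00509), with the compared conditions fitted alone (adjusted p 0.0319) and without replicate 1 at 3 h (adjusted p 0.0492).

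The antizyme OAZ2 and ODC1 had the smallest falls called in siControl. OAZ2 had 81.0% and 73.7% left at 6 h, with a slope of -0.37 (SE 0.094, adjusted p 0.00108 in edgeR). Its fall was called in siIGF2BP1 (-0.26, adjusted p 0.0199) and siIGF2BP2 (-0.22, adjusted p 0.0363) but not in siIGF2BP3 (-0.19, adjusted p 0.085 in edgeR). With no count filter neither call was kept (adjusted p 0.216 and 0.289 in edgeR). The siIGF2BP2 fall was also not called by DESeq2 (adjusted p 0.0545) or, in edgeR, from the 0 h to 6 h change alone (adjusted p 0.0577). ODC1 had 85.0% and 82.6% left, with a slope of -0.26 (SE 0.091, adjusted p 0.0138 in edgeR). The ODC1 fall was not called without replicate 1 of siControl at 0 h (-0.18, adjusted p 0.133) or without replicate 2 at 6 h (-0.22, adjusted p 0.0841). No knockdown gave a call for ODC1, whose libraries at 6 h held 89.4% to 107% of their 0 h mean.

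With all libraries, OAZ1, SRM, SMS and AHCY gave no fall that was called in any condition, and 91.7% to 95.6% of tested genes fell more steeply than they did in siControl. Their libraries at 6 h held 91.9% to 118% for OAZ1, 90.25% to 119.8% for SRM, 97.1% to 119.9% for SMS and 97.2% to 124% for AHCY. Values above 100% mean a larger share relative to ERCC reads than at 0 h, and a rise was called for AHCY in all 3 knockdowns (0.18, 0.20 and 0.22) and for SMS in siIGF2BP1 (0.18) and siIGF2BP3 (0.21). Rises were called for 2.69%, 2.44% and 2.91% of all tested genes in siIGF2BP1, siIGF2BP2 and siIGF2BP3. Without replicate 1 of the same knockdown at 0 h, the AHCY rise was called in none of them (adjusted p 0.0599 to 0.136 in edgeR). In siIGF2BP2 it was also not called without replicate 2 at 6 h (0.09, adjusted p 0.296 in edgeR). The SMS rise was not called in siIGF2BP1 without either library at 0 h or replicate 1 at 6 h (adjusted p 0.0915 to 0.172), nor in siIGF2BP3 without replicate 1 at 0 h or at 6 h (adjusted p 0.126 and 0.143 in edgeR). The slope of the antizyme OAZ1 in siControl was -0.07 (SE 0.087), and without replicate 2 of siControl at 0 h it was -0.22 and called (adjusted p 0.02 in edgeR). Whether OAZ1 and OAZ2 differed in slope was not tested.

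**Figure D3:**
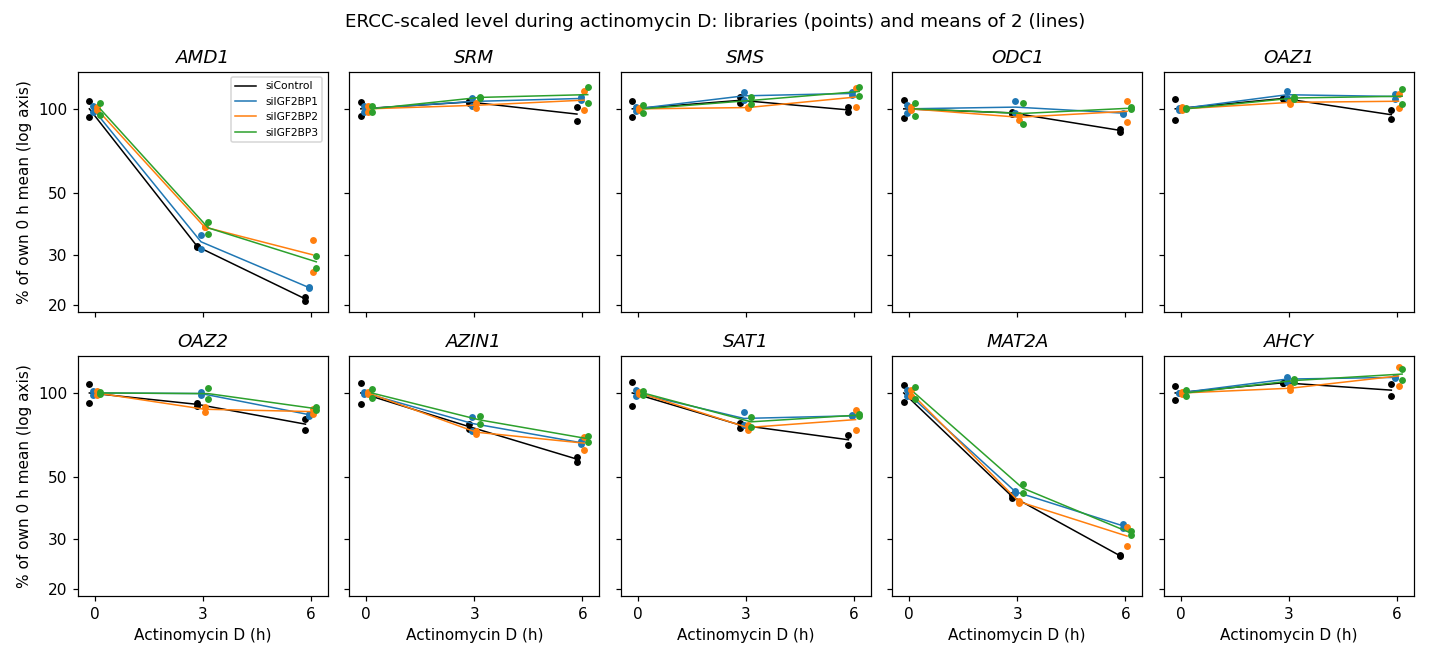
Level of each member (percent of the 0 h mean of its condition, vertical log axis) at 0, 3 and 6 h of actinomycin D, with 1 point per library and lines through the means of 2. AMD1 and MAT2A drop to 20.6% to 34.1% and 26.1% to 34.0% at 6 h, and the other members stay at 56.8% or above.

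Half-lifetimes were computed for transcripts that fell in each of the 8 ways of taking 1 library per time point, and the spread over those 8 is given as a range. In siControl the half-lifetime of AMD1 was 2.17 h (2.05 to 2.31 h) and that of MAT2A 2.74 h (2.55 to 2.98 h), ranges that do not overlap. AZIN1 had 7.58 h (5.90 to 10.9 h), SAT1 9.11 h (6.49 to 16.1 h) and OAZ2 18.7 h (11.2 to 64.2 h), and the ranges of these neighbours overlap. The median over the 11040 genes with a fall was 6.25 h. In the knockdowns this all-gene median was also longer, at 6.93 h in siIGF2BP1 (10277 genes), 6.51 h in siIGF2BP2 (11012 genes) and 7.02 h in siIGF2BP3 (10202 genes). In siIGF2BP1, siIGF2BP2 and siIGF2BP3 the half-lifetime of AMD1 was 2.28, 2.65 and 2.59 h, and that of MAT2A was 3.06, 2.81 and 3.06 h. The ranges of AMD1 and MAT2A were also apart in siIGF2BP1. They overlapped in siIGF2BP2 (2.50 to 2.79 and 2.66 to 2.97 h) and siIGF2BP3 (2.37 to 2.85 and 2.82 to 3.36 h). A regression over the 6 libraries gave longer values, for AMD1 2.66 h in siControl and 2.83, 3.44 and 3.31 h in the knockdowns, and for MAT2A 3.11 h and 3.80, 3.53 and 3.62 h. With TMM scaling they were 3.21 h and 3.12, 4.11 and 3.72 h for AMD1, and 4.62 h and 4.82, 4.52 and 4.80 h for MAT2A, so that AMD1 in siIGF2BP1 and MAT2A in siIGF2BP2 then lay below siControl. By the first method the siControl range of AMD1 overlapped the range of siIGF2BP1 (2.16 to 2.39 h) but not those of siIGF2BP2 (2.50 to 2.79 h) and siIGF2BP3 (2.37 to 2.85 h). For ODC1, OAZ1, SRM, SMS and AHCY some or all of the ways gave no fall in siControl, so no half-lifetime is given. The loss over 6 h was too small against the spread of the libraries to set one.

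No member had a slope that differed from siControl by the edgeR test, in any knockdown. Over all genes, 2, 0 and 3 were called in siIGF2BP1, siIGF2BP2 and siIGF2BP3 (0.0152%, 0.0% and 0.0228%), while 1436, 896 and 2113 had an unadjusted p under 0.05. None of the 10 members had an unadjusted p under 0.05 in edgeR, and DESeq2 called none, with 1 member under that unadjusted p in siIGF2BP3. All 10 slope differences were above 0 in each knockdown, with medians of 0.19, 0.18 and 0.24, beside medians of 0.19, 0.17 and 0.22 over all tested genes. Without replicate 1 of siControl at 0 h, the AMD1 difference in siIGF2BP1 was -0.08, so the shared direction of the 10 rests on that library there. AMD1 then gave 0.31 and 0.23 in siIGF2BP2 and siIGF2BP3, and MAT2A gave 0.19, 0.07 and 0.11 in the 3 knockdowns. It also rests on the scaling, since TMM and library-size scaling put some members below 0 in each knockdown, AMD1 in siIGF2BP1 among them (-0.07 and -0.05), and with TMM the medians over all tested genes were -0.01, -0.02 and -0.01. With all libraries and ERCC scaling, the differences for AMD1 were 0.13 (SE 0.36), 0.52 (SE 0.36) and 0.44 (SE 0.36), with adjusted p of 0.87, 0.643 and 0.481 in edgeR. For MAT2A they were 0.35 (SE 0.25), 0.23 (SE 0.25) and 0.27 (SE 0.26), with adjusted p of 0.531, 0.706 and 0.543. The straight line assumes 1 rate over 6 h, whereas AMD1 and MAT2A lost more in the first 3 h, as given below. Their SE includes that departure from the line, so the lack of a call does not show that the slopes were equal. Between knockdowns, none of the 10 members differed in slope, at 0.0% of genes called in each pair, and 256, 272 and 246 genes had an unadjusted p under 0.05. None of the members did, and DESeq2 called 1, 4 and 0 genes, none of them a member.

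Some of the other fits did call AMD1. With no count filter the slope difference was called in siIGF2BP2 (0.53, SE 0.12, adjusted p 0.0387 in edgeR) but not in siIGF2BP3 (0.44, adjusted p 0.231 in edgeR). That fit called 22 of 33509 genes in siIGF2BP2 (20 above 0) and 12 in siIGF2BP3 (10 above 0). The SE of AMD1 in the slope model was large beside that of the change from 0 h to 6 h alone in the 12-group model, where AMD1 was called as less reduced in siIGF2BP2 (0.53, SE 0.12, adjusted p 0.00668) and siIGF2BP3 (0.44, SE 0.12, adjusted p 0.032 in edgeR). For siIGF2BP1 that value was 0.14 (SE 0.12, adjusted p 0.501). MAT2A gave 0.35, 0.23 and 0.27 (SE 0.12 each) in the 3 knockdowns and was not called (adjusted p 0.12, 0.371 and 0.162 in edgeR). Of all 13136 tested genes, this fit called 86 in siIGF2BP1 (83 above 0), 72 in siIGF2BP2 (70 above 0) and 195 in siIGF2BP3 (194 above 0). The medians over all tested genes were 0.19, 0.17 and 0.22. In a check chosen after seeing the data, TMM in place of ERCC scaling gave 0.32 (SE 0.070, adjusted p 0.0156) in siIGF2BP2 and 0.21 (SE 0.070, adjusted p 0.289) in siIGF2BP3. In siIGF2BP2 the replicates at 6 h were apart, and without replicate 2 the ERCC-scaled value was 0.32 with an adjusted p of 0.561 in edgeR, also chosen after seeing the data. The ERCC-scaled call for AMD1 in siIGF2BP2 thus rests on that library. The gap at 6 h was not particular to AMD1, as every member but OAZ2 was higher in replicate 2. ODC1, for example, held 106.6% there against 89.4% in replicate 1.

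The loss of AMD1 and MAT2A was faster in the first 3 h than in the next 3 h. In siControl AMD1 lost 1.63 log2 units from 0 to 3 h and 0.62 from 3 to 6 h, and MAT2A lost 1.22 and 0.70 log2 units. The edgeR test of the difference gave -1.01 for AMD1 (SE 0.15, adjusted p 1.19e-09) and -0.52 for MAT2A (SE 0.15, adjusted p 0.00526), where a value below 0 means more loss early. These 2 of 10 members were called, against 12.6% of all tested genes. The MAT2A call was lost without either siControl library at 3 h (adjusted p 0.066 and 0.141 in edgeR).

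Over the mean of the 4 conditions, 3 of 10 members were called, against 29.9% of all tested genes. AMD1 had -1.03 (SE 0.076, adjusted p 1.65e-40), MAT2A -0.69 (SE 0.074, adjusted p 2.44e-19) and SAT1 -0.37 (SE 0.072, adjusted p 2.51e-06 in edgeR). SAT1 lost 0.38 log2 units early in siControl and 0.17 late, and in the knockdowns it lost 0.30, 0.41 and 0.34 early, with a late loss of -0.03, -0.09 and -0.08 log2 units, below 0 because the level at 6 h was the higher. AZIN1 was not called over the 4 conditions (-0.15, SE 0.075, adjusted p 0.142 in edgeR). In siControl alone AZIN1 lost 0.40 and 0.39 log2 units, and its test was not passed (-0.01, SE 0.15, adjusted p 0.973 in edgeR). SAT1 was not called there either (-0.21, SE 0.14, adjusted p 0.409 in edgeR). In the knockdowns AZIN1 lost 0.36, 0.47 and 0.32 log2 units early and 0.23, 0.13 and 0.22 late.

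**Figure D4:**
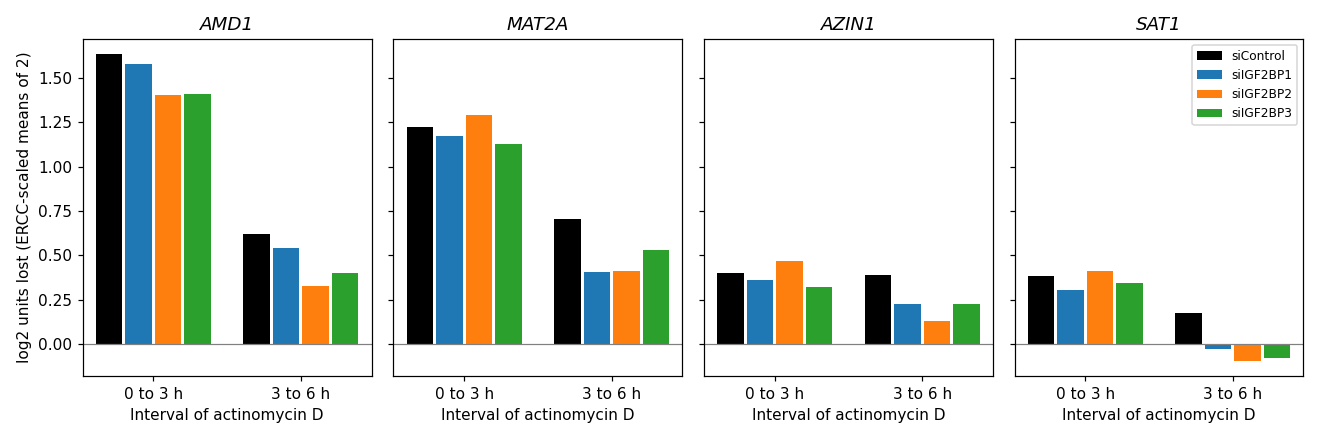
Log2 units lost from 0 to 3 h and from 3 to 6 h (vertical axis, from ERCC-scaled means of 2 libraries) for AMD1, MAT2A, AZIN1 and SAT1 in the 4 conditions, with bars below 0 where the level rose. AMD1 lost 1.40 to 1.63 units early and 0.33 to 0.62 late.

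Sequence features that did not enter the choice of genes were set beside these losses. The pentamer ATTTA, the core of AU-rich elements, occurred 11 times in the 3' untranslated region of AZIN1 (4.87 per kb), 6 times in AMD1 (2.86 per kb), 3 times in MAT2A (1.99 per kb) and 2 times in SAT1 (5.65 per kb). SRM (3.62 per kb), OAZ1 (2.62 per kb) and SMS (2.06 per kb) held 1 copy each and OAZ2 held 2 (1.77 per kb). It was absent from ODC1 and AHCY. The median over 11359 regions was 1.69 per kb, and 72.8% of regions held at least 1 copy. The 8 members that held the pentamer lay above this median, and ODC1 and AHCY lay below it. The median includes regions with no copy, so a comparison with the holders alone favours them. In a short region 1 copy is enough to exceed it, as in SRM (276 bases), OAZ1 (382 bases) and SMS (486 bases). Whether the members are enriched for the pentamer was not tested. The order of these densities is not the order of loss, since SAT1 had the highest density and lost far less than AMD1. TACAGANAA, chosen as the word of the known METTL16 hairpins, was found in none of the members other than MAT2A.

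A wider list of 40 genes of these pathways gives the context, with 39 tested (NNMT was below the filter). At 0 h 9 rose and 3 fell in siIGF2BP1, 2 rose and 3 fell in siIGF2BP2, and 4 rose and 1 fell in siIGF2BP3, beside 15.9%, 12.1% and 9.39% of all tested genes called. BHMT, which remethylates homocysteine, rose by 0.53 on the log2 scale in siIGF2BP1 (SE 0.089, adjusted p 2.41e-05), and ADI1 of methionine salvage fell by 0.44 (SE 0.043, adjusted p 5.26e-10 in edgeR). MAT1A, the paralog of MAT2A in adult liver, fell by 0.30 in siIGF2BP2 (SE 0.048, adjusted p 1.81e-05 in edgeR), and SLC3A2, linked to polyamine transport, rose by 0.23 (SE 0.035, adjusted p 9.42e-06 in edgeR). In siIGF2BP3 the largest called changes were in ARG1 (0.57, SE 0.18, adjusted p 0.0432) and ARG2 (-0.30, SE 0.092, adjusted p 0.0306 in edgeR), which encode arginases.

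Over 6 h, 25 of the 39 fell in siControl and 18, 18 and 15 fell in siIGF2BP1, siIGF2BP2 and siIGF2BP3, beside 80.3%, 69.1%, 71.3% and 67.2% of all tested genes. The median slope of the list in siControl was -0.38, beside -0.88 over all tested genes. METTL16, the methyltransferase that binds MAT2A mRNA, had a siControl slope of -1.92 (SE 0.15, adjusted p 1.21e-10 in edgeR), near that of MAT2A. DHPS of hypusine synthesis had the steepest slope (-4.74, SE 0.67) but was counted at only 0.0561 to 1.81 CPM. No gene of the wider list had a called slope difference between conditions.

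The genes whose TMM-scaled log2 CPM went most closely with a member over the 12 group means are given as a description. For AMD1 they were ZNF587B (Pearson's r 0.9939) and LYSMD3 (0.9937), for MAT2A ANKRD17 (0.9964) and RERE (0.995), and for ODC1 ESYT2 (0.9969) and MZT2A (0.996). The 12 points share their libraries and the common course of actinomycin D.

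Positions of the genes in GRCh38 bear on how reads were assigned. AMD1 lies at chr6:110874770-110898879 and MAT2A at chr2:85539168-85545281, both on the plus strand, and GGCX overlaps MAT2A on the other strand. SAT1 lies at chrX:23783173-23786210 on the plus strand and SRM at chr1:11054584-11060020 on the minus strand. ODC1, at chr2:10439968-10448327 on the minus strand, holds SNORA80B, and OAZ1, at chr19:2269509-2273490 on the plus strand, overlaps JSRP1. SAT1 overlaps 1 further annotated gene and AHCY 2 on the same strand, AZIN1 overlaps 1 on the same strand and 3 on the other, and OAZ2 overlaps 3 on the other strand. How the counting treated strand and overlaps is not given in the sources used here, so reads in the overlapping parts are uncertain. Named processed copies took few reads: the 4 AMD1 pseudogenes held 0.0359% as many as AMD1, and those of MAT2A and AHCY 0.0015% and 0.0002%.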

How the data were processed

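Per the labels and the study's methods, ERCC synthetic RNA was added in proportion to total RNA, polyadenylated RNA was made into stranded libraries and sequenced single-end, and the authors trimmed reads with Trimmomatic 0.39, aligned them to hg38 with HISAT2 2.1.0 and counted them per gene with HTSeq. The deposited values are raw read counts, not normalized. Summary rows that name no gene (13.6% to 17.1% of each total) and 45 rows for Y copies of shared regions stayed out. METTL1 knockdown libraries were not analysed here.

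Counts were tested with edgeR 4.0.16 (R 4.3.3), two-sided, on the 13136 genes that reached 1 CPM in 2 or more libraries, with p-values Benjamini-Hochberg adjusted over all of them and a threshold of 0.05. Levels at 0 h and early against late loss used 12 group means (12 residual degrees of freedom), with TMM and ERCC scaling respectively. Slopes used an intercept and a slope per condition (16 residual degrees of freedom) and ERCC totals. SE is the effect divided by the square root of F. For the first-order decay rate, the natural log of the ERCC-scaled mean at 0 h over that at 3 h was divided by 3, the same for 6 h by 6, and both were averaged. Half-lifetime is the natural log of 2 over that rate. Since ERCC RNA was added after extraction in proportion to total RNA, ERCC-scaled values are relative to total RNA. A change in total RNA per cell does not show in them. The counting error of ERCC reads was at most 0.443% (CV). Reads carry no molecular identifiers, so counting errors cover counting only. Replicates of each group differed by more than sampling noise, with a chi-square of 3.24 to 8.51 for each degree of freedom, and were kept as separate libraries.

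Symbols were matched by Ensembl identifier for 58207 of 58676 rows, and positions and sequences are from GRCh38 with a later GENCODE release than the counting used. The 10 members, the wider list of 40 and the alternatives were chosen with earlier results of these data known. All members are named. Of the wider list, up to 3 genes per comparison with the largest called change could be named (1 is not reported here), and the 2 genes of highest correlation were taken for AMD1, ODC1 and MAT2A. The scripts were tested on simulated data. Alternatives were DESeq2 1.42.0, other scalings, no count filter, fits of the compared groups alone, the 0 h to 6 h change alone, a replicate block, and leaving out each library. Figures and summaries used Python 3.11.15.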

Additional observations from a re-analysis of the deposited data

Results flagged for a closer look

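The knockdowns differed from each other at 0 h for 5 members, by edgeR's quasi-likelihood test of the difference itself, with Benjamini-Hochberg adjustment over all tested genes. In siIGF2BP2 against siIGF2BP1 the log2 difference was -0.24 for AMD1 (adjusted p 0.000198), -0.13 for SAT1 (adjusted p 0.00646), 0.23 for MAT2A (adjusted p 1.6e-05) and 0.21 for AHCY (adjusted p 4.1e-07). In siIGF2BP3 against siIGF2BP1 it was -0.21 for SAT1 (adjusted p 4.4e-05) and 0.24 for MAT2A (adjusted p 2.09e-05). In siIGF2BP3 against siIGF2BP2 it was 0.24 for AMD1 (adjusted p 0.000432), -0.12 for SRM (adjusted p 0.0256) and -0.16 for AHCY (adjusted p 0.000191). In each of these 9 differences both libraries of one knockdown lay above both of the other. Choosing differences that were called favours such a separation, so it adds no support, and it was not counted over all tested genes. Without replicate 1 of siIGF2BP2 at 0 h, the SRM difference was -0.07 with an adjusted p of 0.458, and without either siIGF2BP3 library its adjusted p was 0.0977 to 0.163. The SAT1 difference between siIGF2BP2 and siIGF2BP1 was not called without replicate 1 of siIGF2BP1 (adjusted p 0.0986) or replicate 1 of siIGF2BP2 (adjusted p 0.0543). With ERCC in place of TMM scaling 6 of the 9 differences were not called. In siIGF2BP2 against siIGF2BP1 these were AMD1 (-0.13, adjusted p 0.332) and SAT1 (-0.02, adjusted p 0.918), and in siIGF2BP3 against siIGF2BP1 SAT1 (-0.09, adjusted p 0.557 in edgeR). In siIGF2BP3 against siIGF2BP2 they were AMD1 (0.24, adjusted p 0.102), SRM (-0.12, adjusted p 0.775) and AHCY (-0.15, adjusted p 0.527 in edgeR).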

How the results depend on the processing

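Scaling mattered most. With ERCC in place of TMM scaling at 0 h, members called fell from 4 to 0 in siIGF2BP1, from 3 to 0 in siIGF2BP2, from 4 to 2 in siIGF2BP2 against siIGF2BP1, from 2 to 1 in siIGF2BP3 against siIGF2BP1 and from 3 to 0 in siIGF2BP3 against siIGF2BP2, while SAT1 stayed called in siIGF2BP3. Calls over all 13136 tested genes fell from 2093 to 649, 1593 to 732 and 1234 to 471 in siIGF2BP1, siIGF2BP2 and siIGF2BP3. For the 3 pairs of knockdowns, in the order above, they fell from 2455 to 1585, 1879 to 875 and 1207 to 382. For the 7 changes lost against siControl the SE was 0.081 to 0.086 in place of 0.029 to 0.047. The median of all genes then moved to 0.117 and 0.106 in siIGF2BP2 and siIGF2BP3 against siIGF2BP1. With TMM or library-size scaling of the time course, which removes the shared loss of RNA, falls were called for 2 or 3 members in siControl, siIGF2BP1 and siIGF2BP2, and early and late loss differed for 8 or 7 members in siControl and 9 or 8 over the 4 conditions. Of all 13136 tested genes, 5085 or 6878 fell in siControl, 5043 or 6775 in siIGF2BP1 and 5145 or 6764 in siIGF2BP2. Early and late loss differed for 4163 or 3306 of them in siControl and 6937 or 6311 over the 4 conditions.

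Among slopes called with ERCC or with the other scaling, those under TMM turned positive in siControl for ODC1 (0.62), OAZ1 (0.80), OAZ2 (0.50), AZIN1 (0.09), SAT1 (0.32), SRM (0.81) and SMS (0.86), in siIGF2BP1 for ODC1 (0.62), OAZ2 (0.42), AZIN1 (0.084) and SAT1 (0.40), in siIGF2BP2 for ODC1 (0.64), OAZ2 (0.46), AZIN1 (0.078) and SAT1 (0.36), and in siIGF2BP3 for OAZ2 (0.46), AZIN1 (0.10) and SAT1 (0.38). Under library-size scaling they turned positive in siControl for ODC1 (0.30), OAZ1 (0.48), OAZ2 (0.18), SRM (0.48) and SMS (0.54), in siIGF2BP1 for ODC1 (0.32), OAZ2 (0.12) and SAT1 (0.10), and in siIGF2BP2 for ODC1 (0.36), OAZ2 (0.18) and SAT1 (0.079). Early against late loss of ODC1 over the 4 conditions turned to 0.12 with TMM. AMD1 and MAT2A fell under each of these scalings.

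DESeq2 called 2 members in place of 1 in siIGF2BP3 at 0 h. For slope differences, 1 member (AMD1) was called in siIGF2BP2 with no count filter, and 1 each in siIGF2BP2 and siIGF2BP3 from the 0 h to 6 h change alone, and 1 in siIGF2BP2 with TMM added to that, an alternative chosen after seeing the data. Over all genes, the fit with no filter called 22 of 33509 in siIGF2BP2. The 0 h to 6 h change alone called 72 and 195 of 13136 in siIGF2BP2 and siIGF2BP3. Leaving out 1 library gave 2 to 4 members called at 0 h in siIGF2BP1 and 1 to 2 in siIGF2BP2, 3 to 5 falling in siIGF2BP1 and 3 to 5 in siIGF2BP2, and 1 to 3 with early and late loss different in siControl. The lowest counts came without siControl 0 h replicate 1 or siIGF2BP1 0 h replicate 2, without siControl 0 h replicate 1 or siIGF2BP2 0 h replicate 1, without either siIGF2BP1 library at 6 h, without either siIGF2BP2 library at 0 h, and without either siControl library at 3 h. The median half-lifetime of the members in siControl, with those that did not fall counted as longest, was 26.5 h, and 20.1 h by regression over 6 libraries. It was 15.3 to 359.6 h with 1 library left out, the highest without siControl 0 h replicate 1, and it had no value with TMM scaling.

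The replicate numbers in the labels name no shared culture. By the study's methods, transfected plates were split into smaller plates before actinomycin D. Libraries of different time points in a condition may therefore share a transfected culture. Deviations of same-numbered libraries correlated at -0.041 to 0.13 over 66 pairs of groups, above 0.1 in 2. With the replicate block, 4, 3 and 1 members were called at 0 h in the 3 knockdowns, 0 slope differences were called, and falls were called for 6, 4, 5 and 3 members, the SAT1 fall in siIGF2BP1 being the one lost (adjusted p 0.0561 in edgeR). The causes of these changes were not tested.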
